A study of Prunus dulcis and Prunus persica and Prunus persica x Prunus dulcis with 15 samples.

Results

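The genes described here differed strongly in transcript level between the 2 parents of a peach × almond hybrid and were found at the level of the lower parent in the hybrid. They numbered 91 of the 22274 peach gene models with RNA-seq counts, 48 with peach as the lower parent and 43 with almond as the lower parent. A gene was taken when the mean levels of the parents were at least 3-fold apart, when no library of one parent overlapped those of the other, when the lower parental mean was at least 0.5 CPM (the count of a gene divided by the total count of its library and multiplied by 1e6), and when the hybrid mean lay between 70% and 130% of the lower parental mean. The members were thus chosen by their mean CPM in the hybrid and in both parents, so these levels are given as a description, without a test. Their names are the identifiers of the peach gene models, in which the digit before the G is the chromosome. What these 91 genes encode was not analysed here.

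Leaves were taken from a single interspecific F1 hybrid (MB 1.37), from its peach parent *Prunus persica* cv Early Gold and from its almond parent *Prunus dulcis* cv Texas. Sampling was of mature leaves from field trees in late September, and no treatment was applied. Each genotype had 3 RNA-seq libraries, which the design text calls biological replicates, and whether they came from separate trees is not given in the sources used here, so that the spread between libraries may in part be technical. The study asked whether joining the genomes of peach and almond changes the transcription of transposable elements and genes. The counts of a library summed to between 11726323 and 16070224 read pairs in the hybrid, between 15192678 and 15996851 in peach and between 7485763 and 17725455 in almond. These are read pairs assigned to gene models and transposable elements, taken as 2 counts each, and not all those sequenced. Because each genotype was a single cultivar or a single hybrid, a value below belongs to that genotype and not to its species.

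In an F1 hybrid each gene is present as an allele from each parent, and both alleles are exposed to the same set of transcription factors. When each allele keeps the activity it had in its parent, the hybrid lies near the mean of the parents, which is called additive expression. When the total level resembles only 1 parent, the pattern is called expression-level dominance, of the lower parent in the case considered here. A total count does not separate the 2 alleles, so the part of each allele in a hybrid at the lower parental level cannot be told from the values used here.

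Among the 16290 gene models at 0.5 CPM or more in the lower parent, the parents were at least 3-fold apart without overlap at 1632. Peach was lower at 865 of them (5.31% of the 16290) and almond at 767 (4.71%). The 91 members were 5.58% of these separated genes and 0.559% of the 16290. The share was 5.55% where peach was lower and 5.61% where almond was lower. Of the other separated genes, 1023 had a hybrid mean between the window of the lower parent and the corresponding window of the higher parent, 446 lay within 70% to 130% of the higher parent, 38 lay below the lower window and 34 lay above the higher one. A window set in percent is narrower around a low level than around a high one, so the counts of 91 and 446 do not compare like with like. With windows of equal width, reaching 10% of the parental distance to each side, the hybrid was at the lower parent in 129 genes (7.9% of the 1632), at the mean of the parents in 434 (26.6%) and at the higher parent in 71 (4.35%). With a reach of 15% the numbers were 190, 647 and 131. Of the 91 members, 86 were within 10% of the parental distance from the lower parent and all 91 within 15%.

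**Figure D1:**
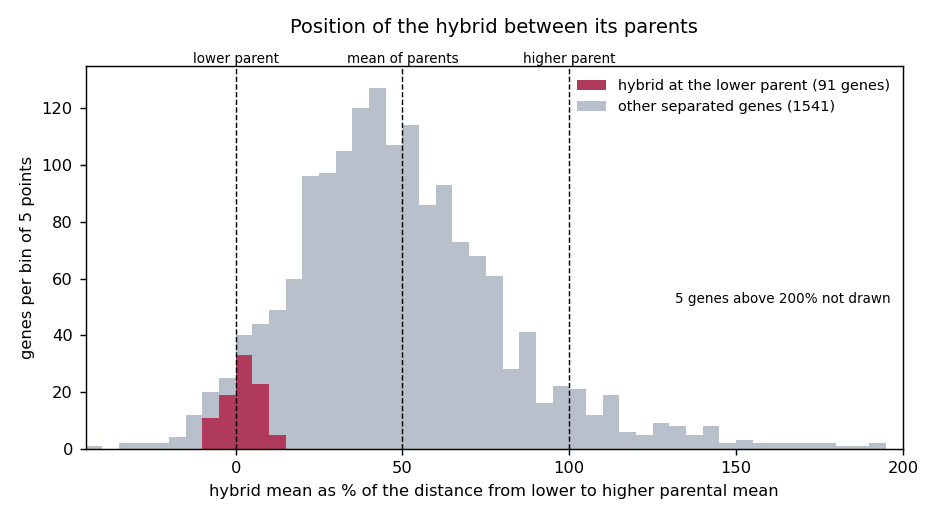
Position of the hybrid mean between its parents in the 1632 separated genes, in bins of 5 points, where 0% is the lower parental mean, 50% the mean of the parents and 100% the higher parental mean (x axis, % of the parental distance, and y axis, number of genes). The 91 members (red) sit between -9.31% and 13.7%, at the low edge of a single broad distribution formed with the other 1541 genes (grey), of which 5 lie beyond 200% and are not drawn.

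Members were most common among genes with a small parental ratio and least common among those with a large one. They made up 48 of the 577 genes with a parental ratio of 3 to 4 (8.32%), 12 of 290 with a ratio of 4 to 5 (4.14%), 26 of 474 with a ratio of 5 to 10 (5.49%) and 5 of 291 with a ratio of 10 or more (1.72%). The same window covers a larger piece of the parental distance when the ratio is small. Its upper limit of 130% stands at 15% of the distance for a ratio of 3 and at 3.33% for a ratio of 10. The median parental ratio of the members was 3.87 (quartiles 3.38 and 5.63), against 4.86 in the other separated genes.

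The hybrid mean of the members had a median of 2.84 CPM and ranged between 0.369 and 99.5 CPM. The lower parental mean had a median of 2.67 CPM in the members and 2.89 CPM in the other separated genes, and the higher parental mean a median of 14 CPM in the members and 17.3 CPM in the others. Behind these values stood between 15 and 4024 read pairs per gene over the 3 hybrid libraries (median 118) and between 13 and 3646 over the 3 libraries of the lower parent (median 114). The counting error was therefore wide. An exact 95% interval of the ratio of hybrid to lower parent, computed from the summed read pairs, lay wholly inside the window of 70% to 130% in 20 of the 91, and included 100% in 71. This interval covers counting error only. It surrounds the ratio of summed read pairs, which gives deeper libraries more weight and differs from the ratio of means in the rule. In Prupe.3G277900.1, for example, the summed ratio was 152% and the ratio of means 125%.

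The hybrid mean was 110% of the lower parental mean at the median of the members (109.6%, quartiles 95.0% and 120%), and was below the lower parent in 30 of the 91. The spread between libraries was as wide as the window. The SD of the 3 hybrid libraries had a median of 34.9% of the lower parental mean and was above 30% in 53 of the 91. All 3 hybrid libraries were inside the window in 20 members, 11 with peach lower and 9 with almond lower. In 90 of the 91, all 3 hybrid libraries lay below the mean of the parents, and the share of all separated genes that did so was not computed. They lay below every library of the higher parent in 88 of the 91, where 59.3% of all separated genes did so, and overlapped the libraries of the lower parent in 88, where 23% of all separated genes did so. The rule fixed most of these last 3 counts, so nothing is read from them or from their distance to the shares.

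Among the genes with peach lower, Prupe.7G040900.1 on chromosome 7 had the widest gap between the parents. It was at 0.498, 0.931 and 0.341 CPM in the hybrid and at 0.954, 0.5 and 0.724 CPM in peach, against 77.9, 83.3 and 84.0 CPM in almond. The hybrid and peach libraries overlapped, and every almond library was far above them, with almond 113-fold above peach. The hybrid mean was 81.3% of the peach mean. Only 26 read pairs in the hybrid and 34 in peach supported that ratio, and its exact interval reached from 48.3% to 144%. Without hybrid library 2 the hybrid fell to 57.8% of peach and the gene left the class. Its neighbours in the gene order differed less between the parents. Prupe.7G040700.1, the model before it, averaged 27.8 CPM in the hybrid, 38.4 CPM in peach and 21.8 CPM in almond, and Prupe.7G041000.1, the model after it, averaged 4.54 CPM in the hybrid, 2.25 CPM in peach and 8.05 CPM in almond (both chosen after their values were seen).

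Other peach-lower genes with a wide parental gap differed in how even their libraries were. Prupe.1G237100.1 (chromosome 1) was at 2.43, 3.06 and 1.88 CPM in the hybrid and at 0.318, 3.81 and 3.88 CPM in peach, against 43.0, 52.4 and 46.7 CPM in almond, a parental ratio of 17.7. The 3 hybrid libraries lay inside the peach range, which was set by peach library 1 at the low end. Prupe.4G155000.1 (chromosome 4) had 11, 8.44 and 8.70 CPM in hybrid leaves, 15.3, 10.8 and 10.7 CPM in peach and 108, 96.7 and 112 CPM in almond. Here the hybrid mean was 76.6% of peach, with 406 read pairs in the hybrid and 575 in peach and an exact interval of 67.9% to 88.0%. Prupe.2G031000.1 (chromosome 2) showed how a mean can place a gene in the class. It was steady in the hybrid at 12.2, 11.1 and 9.55 CPM, while peach spread over 2.03, 5.50 and 22 CPM and almond over 84.0, 112 and 33.2 CPM. The hybrid mean was 111% of the peach mean and would be 291% of it without peach library 4.

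With almond as the lower parent, the largest parental ratio belonged to Prupe.1G329000.1 on chromosome 1. It was at 0.809, 2.73 and 3.33 CPM in the hybrid, at 115, 63.9 and 2219 CPM in peach and at 0.401, 0.621 and 4.47 CPM in almond. All hybrid and almond libraries were below all peach libraries. The ratio of 437 rested on peach library 4 and was 49.0 without it. The place of the hybrid at the almond level rested on almond library 3, because without it the hybrid mean was 448% of the almond mean, and without hybrid library 1 it was 165%. A gene model 2 places before it in the gene order, Prupe.1G328800.1 (chosen after its values were seen, and no member), had the same high library, with 0, 0.266 and 0.256 CPM in hybrid leaves, 3.50, 2.19 and 78.1 CPM in peach and 0.401, 0 and 0 CPM in almond.

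The other 7 almond-lower genes with the widest gaps also differed in evenness, since Prupe.7G079100.1 spread over 1.53, 1.88 and 8.49 CPM in peach and Prupe.4G026300.1 over 0.401, 5.47 and 1.65 CPM in almond. Peach also spread over 12.6, 32.0 and 57.9 CPM in Prupe.1G163500.1 and over 6.04, 11.4 and 15.9 CPM in Prupe.6G221500.1. The remaining 3 are given in full. Prupe.3G029000.1 (chromosome 3) was at 0.436, 0.665 and 0.682 CPM in the hybrid, at 8.52, 7.25 and 6.58 CPM in peach and at 0.134, 0.733 and 0.823 CPM in almond, a parental ratio of 13.2 on 25 read pairs in the hybrid and 21 in almond. Prupe.8G170400.1 (chromosome 8) had 3.80, 3.32 and 2.05 CPM in hybrid leaves, 25.7, 30.9 and 32.8 CPM in peach and 3.87, 4.34 and 2.12 CPM in almond. In both genes the 3 hybrid libraries stood within or close to the almond range and far below peach. Prupe.2G055300.1 (chromosome 2) showed the same arrangement at 1.18, 1.53 and 1.62 CPM in hybrid leaves, 7.5, 7.13 and 12.0 CPM in peach and 1.47, 1.64 and 1.06 CPM in almond.

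**Figure D2:**
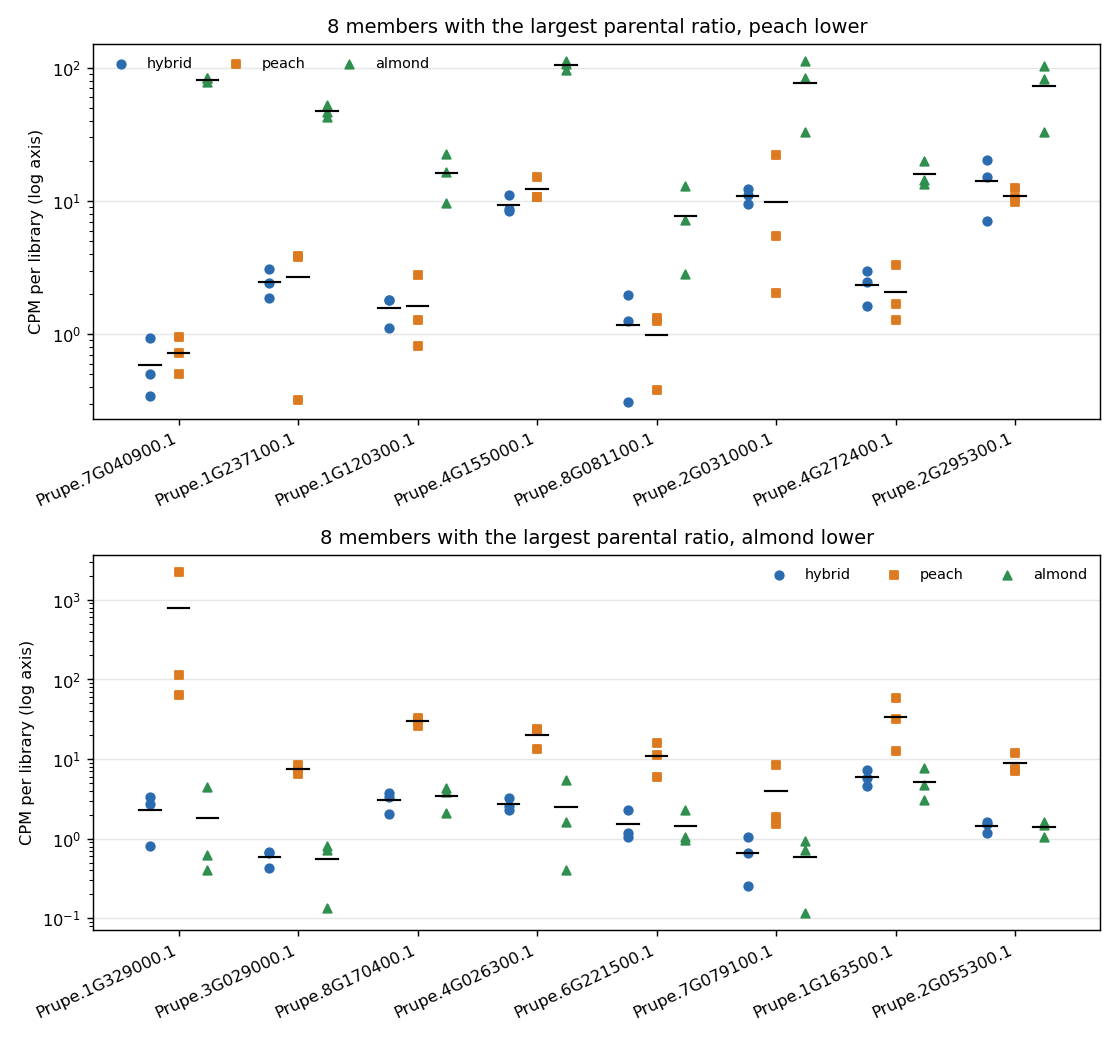
CPM per library on a log axis for the 8 members with the largest parental ratio in each direction (upper panel, peach lower, and lower panel, almond lower), with hybrid, peach and almond side by side, points for the 3 libraries of each genotype and bars for their means. The hybrid points overlap or lie near those of the lower parent and below those of the higher parent, and single libraries stand apart, such as peach library 4 at 2219 CPM for Prupe.1G329000.1.

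The members with the highest level in the hybrid had more reads behind them. For Prupe.4G069300.1 (chromosome 4) the hybrid was at 43.4, 101 and 155 CPM, peach at 67.7, 37.8 and 130.1 CPM and almond at 273, 191 and 406 CPM. The hybrid and peach ranges overlapped over most of their length, and both stayed below almond. The hybrid mean of 99.5 ± 55.7 CPM was 127% of the peach mean of 78.5 ± 47.1 CPM (SD, n = 3 each). Prupe.1G103000.1 (chromosome 1) was even in both, with 28.8, 23.7 and 22 CPM in hybrid leaves and 24.2, 20.3 and 31.5 CPM in peach, against 102, 112 and 168 CPM in almond. On 1077 read pairs in the hybrid and 1184 in peach, the exact interval of its ratio was 91.6% to 108%, the hybrid mean being 98.0% of peach. In Prupe.1G373300.1 (chromosome 1) peach was even at 20.2, 23.6 and 19.6 CPM while the hybrid spread over 7.34, 33.0 and 26.9 CPM, and almond was at 109.9, 62.0 and 141 CPM. The 3 hybrid libraries thus lay on both sides of peach. In Prupe.1G038100.1 (chromosome 1) the high library was in peach, with 37.3, 39.4 and 12.0 CPM in hybrid leaves, 18.1, 17.7 and 89.2 CPM in peach and 322, 247 and 138 CPM in almond. Without peach library 4 its hybrid mean was 165% of peach, in place of 71.0%.

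Where almond was lower, the member with the highest hybrid mean was Prupe.8G161600.1 (chromosome 8), at 35.1, 37.0 and 32.2 CPM in hybrid leaves, 95.4, 99.9 and 86.4 CPM in peach and 31.9, 28.0 and 26.1 CPM in almond. Its libraries agreed closely, and each hybrid library was above each almond library, the hybrid mean being 121% of almond with an exact interval of 113% to 134%. Prupe.8G168700.1, also on chromosome 8, was at 10.4, 10.6 and 13.4 CPM in the hybrid and at 10.8, 9.37 and 11.9 CPM in almond, with peach at 37.7, 34.8 and 38.8 CPM. Hybrid and almond overlapped there, and the hybrid mean was 107% of almond (exact interval 95.2% to 126%). Prupe.8G030200.1 had 14.2, 17.1 and 17.1 CPM in hybrid leaves, 72.2, 82.8 and 78.4 CPM in peach and 12.3, 16.3 and 11.3 CPM in almond. Prupe.2G207600.1 (chromosome 2) was the only member with every hybrid library below every library of the lower parent, at 19.4, 21.7 and 20.6 CPM in the hybrid and 34.6, 24.9 and 22.7 CPM in almond. Its peach libraries were at 40.5, 66.0 and 210.2 CPM.

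**Figure D3:**
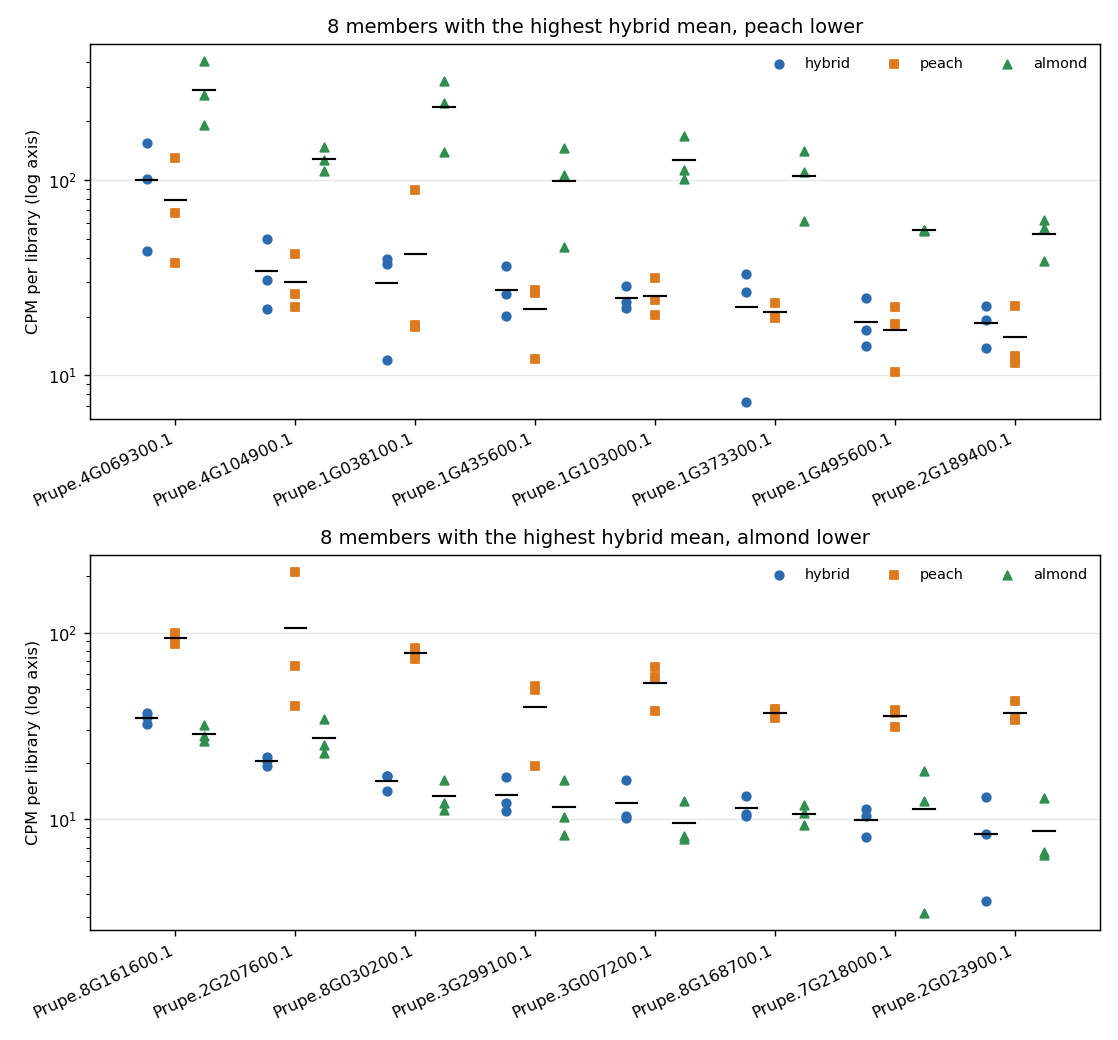
CPM per library on a log axis for the 8 members with the highest hybrid mean in each direction (upper panel, peach lower, and lower panel, almond lower), with hybrid, peach and almond side by side, points for the 3 libraries of each genotype and bars for their means. Libraries of Prupe.8G161600.1 lie close together, at 32.2 to 37.0 CPM in the hybrid, 86.4 to 99.9 CPM in peach and 26.1 to 31.9 CPM in almond, whereas those of Prupe.4G069300.1 spread over 43.4 to 155 CPM in the hybrid.

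In 3 members the hybrid libraries overlapped those of the higher parent (Prupe.3G239900.1 and Prupe.8G021300.1 with peach lower and Prupe.4G085400.1 with almond lower, chosen after their values were seen). Prupe.8G021300.1 was at 4.23, 2.19 and 0.597 CPM in hybrid leaves, 2.48, 2.69 and 1.05 CPM in peach and 11.8, 4.29 and 2.94 CPM in almond. Its 3 genotypes followed each other without a gap, and its parental ratio of 3.05 was just past the limit. In 8 of the 91 members the highest library of the higher parent was more than 2 times the next one (8.79%, against 7.01% of the other separated genes). That library was peach library 4 in each of the 5 with almond lower, among them Prupe.1G329000.1, Prupe.2G207600.1 and Prupe.7G079100.1. Peach library 4 was also the highest of the peach libraries in 27 of the 48 members with peach lower (56.2%) and in 703 of all 1632 separated genes (43.1%), and its part in the choice of members was not tested beyond leaving it out.

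The limits of the class ran through closely spaced values. With peach lower, the genes just inside the window were Prupe.7G135400.1 (hybrid at 70.9% of peach) and Prupe.1G038100.1 (71.0%) at the low end and Prupe.7G218400.1 (129%) and Prupe.2G295300.1 (129.6%) at the high end. The nearest outside were Prupe.7G047700.1 (69.8%) and Prupe.3G280800.1 (130.2%). With almond lower, Prupe.1G253400.1 (71.3%) and Prupe.3G155000.1 (129.7%) were inside, and Prupe.2G112600.1 (66.6%) and Prupe.2G064900.1 (130.2%) outside. At the limit on the parental ratio, Prupe.2G011000.1 (3.05, peach lower) and Prupe.4G186300.1 (3.10, almond lower) were inside, and Prupe.5G092400.1 (2.98, peach lower) and Prupe.I000900.1 (2.998, almond lower) were outside.

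To read the hybrid level in a library that had no part in the choice, the limits were applied with only 2 hybrid libraries and the remaining one was measured. This chose 101, 106 and 105 genes when hybrid library 1, 2 or 3 was set aside. In the libraries used, the median hybrid level was 106%, 107% and 106% of the lower parent. In the library set aside it was 130%, 127% and 128%, that is, at the upper limit of the window or just below it. The library set aside was inside the window in 41 genes (40.6%), 46 genes (43.4%) and 37 genes (35.2%), above it in 50, 47 and 51, and below it in 10, 13 and 17. Nearly all stayed nearer to the lower than to the higher parent, namely 89.1%, 94.3% and 98.1% of the genes. In terms of the parental distance, the median position in the library set aside was 12.7%, 5.66% and 7.12%. The hybrid mean of all 1632 separated genes had a median position of 45.4%, so more of them than not were also nearer to the lower parent. The size of the rise differed between directions and libraries. With peach lower, medians went from 105%, 108% and 104% in the libraries used to 147%, 129% and 120% in that set aside. With almond lower, they went from 111%, 107% and 109% to 114%, 115% and 142%. The parental means were used in the choice in all cases, so these values are free of the choice only on the side of the hybrid.

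**Figure D4:**
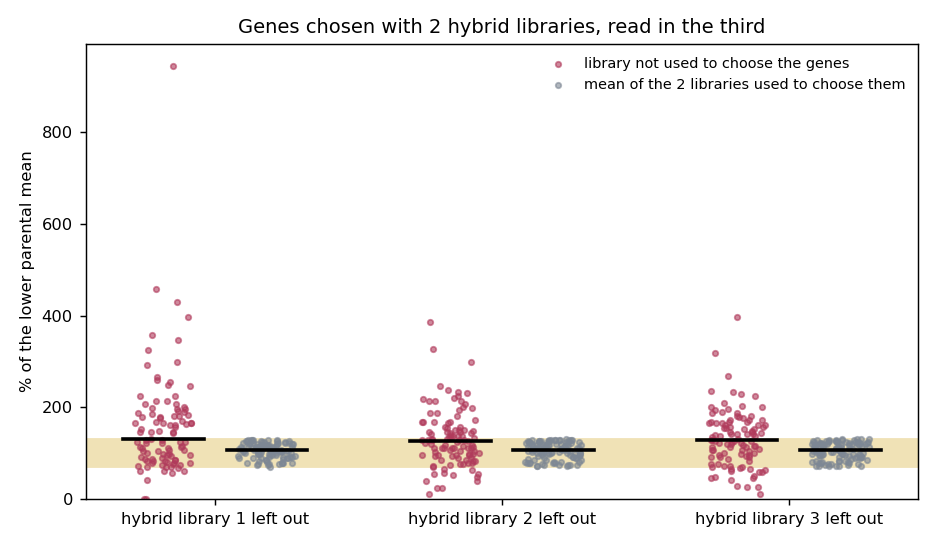
Hybrid level as % of the lower parental mean (y axis) for the genes chosen with 2 of the 3 hybrid libraries, in the library left out (red) and in the mean of the libraries used (grey), for each of the 3 libraries in turn (x axis); bars are medians and the shaded band is the window of 70% to 130%. The medians are 130%, 127% and 128% in the library left out, against 106%, 107% and 106% in the libraries used, and the library left out is inside the window in 41 of 101, 46 of 106 and 37 of 105 genes.

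Membership also depended on single libraries. With 1 of the 9 libraries left out at a time, the share of members that were chosen again was lowest without peach library 4 where peach was lower (23 of 48, 47.9%) and without almond library 2 or 3 where almond was lower (23 of 43 in each case, 53.5%). It was highest without peach library 1 where almond was lower (41 of 43, 95.3%). Leaving out a library of the lower parent cost more members than leaving out a library of the higher parent, in both directions and for every pair of such libraries. The rule favours this order, because the window is set against the lower parental mean. A library of the higher parent could remove a member only through the limit on the parental ratio. Only 7 members were chosen whichever library was left out, and 21 were chosen in at most 5 of the 9 cases. The 7 were Prupe.1G103000.1, Prupe.2G201700.1 and Prupe.1G211500.1 with peach lower, and Prupe.8G170400.1, Prupe.2G055300.1, Prupe.8G168700.1 and Prupe.8G161600.1 with almond lower (2 of them, Prupe.2G201700.1 and Prupe.1G211500.1, lay outside the naming rule and were chosen for this count). Prupe.2G201700.1 (chromosome 2) was at 1.37, 1.13 and 1.54 CPM in hybrid leaves, 1.02, 1.63 and 1.45 CPM in peach and 5.88, 5.36 and 5.76 CPM in almond. Prupe.1G211500.1 (chromosome 1) was at 4.79, 4.12 and 3.50 CPM in hybrid leaves, 4.45, 3.25 and 3.42 CPM in peach and 11.2, 15.3 and 17.2 CPM in almond. In both, hybrid and peach overlapped and almond stood clear of them.

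**Figure D5:**
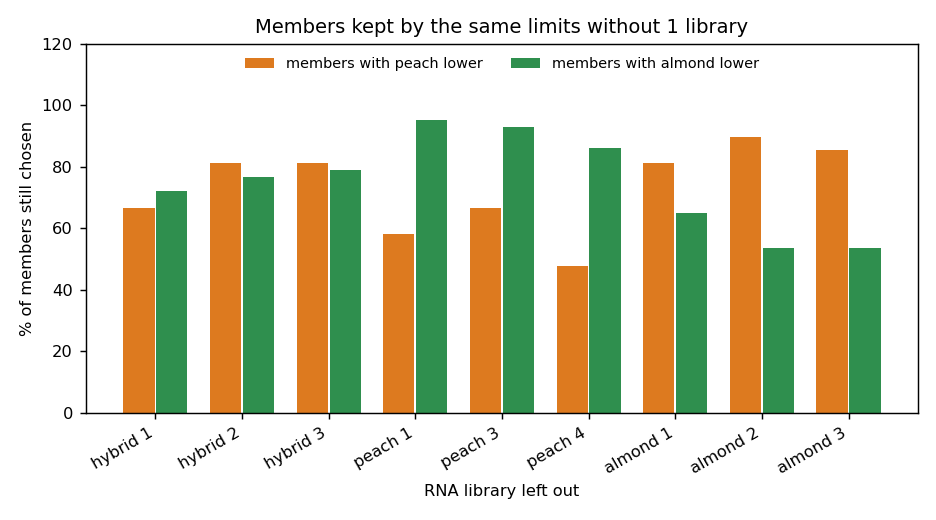
Share of members that the same limits chose again (y axis, %) when the RNA library named on the x axis was left out, for the 48 members with peach lower (orange) and the 43 with almond lower (green). The lowest bars are 47.9% (peach lower, without peach library 4) and 53.5% (almond lower, without almond library 2 or 3), and the highest is 95.3% (almond lower, without peach library 1).

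The rule did not use the position of the genes. Members lay on all 8 chromosomes, with 20, 12, 17, 10, 4, 7, 11 and 10 on chromosomes 1 to 8 and 0 of the 29 unplaced gene models. Chromosome 3 held 18.7% of the members and 11.4% of the 16290 genes at the minimum level, chromosome 6 held 7.69% and 13.7%, and chromosome 5 held 4.40% and 9.48%. These shares are a description of small counts. No pair of members was adjacent in the gene order. The closest were Prupe.2G023700.1 and Prupe.2G023900.1 on chromosome 2, with a single gene model between them and almond lower in both. The 3 hybrid libraries had the same order in both genes, at 7.41, 4.52 and 2.73 CPM for Prupe.2G023700.1 (outside the naming rule and chosen for its place) and 13.1, 8.31 and 3.67 CPM for Prupe.2G023900.1. In the parents the order differed between the genes. Peach was at 15.5, 11.9 and 14.6 CPM in the first and 34.6, 33.8 and 43.2 CPM in the second. Almond was at 4.81, 3.33 and 4.12 CPM in the first and 13.0, 6.71 and 6.47 CPM in the second. Prupe.7G218000.1 and Prupe.7G218400.1 on chromosome 7 had 3 gene models between them and opposite lower parents.

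In the test across all genes (edgeR quasi-likelihood test, adjusted p under 0.05 over 19085 features and a log2 ratio of at least 1), the hybrid was called lower than peach in 2.31% of features and 36 of the 43 members with almond lower. It was called lower than almond in 1.99% of features and 33 of the 48 members with peach lower. Peach was called higher than almond in 11.2% of features and 41 of the 43, and lower in 10.3% of features and 41 of the 48. The rule used these contrasts, and nothing is read from the counts. They also varied with the test, since DESeq2 called the hybrid below its higher parent in 40 of the 43 and 41 of the 48, and edgeR with the replicate number as a block in 25 and 29. In the block fit peach library 4 was alone in its block and so had no weight in the contrasts. Against the lower parent, 0 members of either direction were called higher or lower by edgeR or by DESeq2, where 5.2% of features were called higher in the hybrid than in peach and 5.62% higher than in almond, and 1 in each direction had an unadjusted p under 0.05. The window itself kept the members close to this parent. It also left almost no room for members among the 36 genes in which the hybrid was called below each of its parents, and 0 were among them. The study annotated 9 peach gene models as RNA-dependent RNA polymerases, DNA methyltransferases or DNA demethylases, enzymes that set or remove DNA methylation or make the double-stranded RNA for it. None of the 9 met the conditions on the parents (their parental ratios were between 1.02 and 16.6), so 0 were members. They were listed by the study after these data were seen.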

How the data were processed

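Leaf RNA was sequenced in 9 libraries, 3 each of the hybrid, of peach (numbered 1, 3 and 4) and of almond, and 0 columns of sample values were left out. A single reference served all genotypes, made of the peach gene transcripts and a set of transposable element copies from both species. RSEM, run by the authors with its default settings and Bowtie2 as aligner, counted only sense reads on it. The authors deposited raw counts for 22334 rows, of which 22274 are gene models and 60 are transposable element families. Every count was even, so 2 counts were taken as 1 read pair. On 1 line 2 records had run together and were split. The regularized log values were not used here, and neither were the methylation tables, because no coordinates of the gene models were at hand. Since almond reads were aligned to peach models, a loss of almond reads through sequence differences cannot be told apart from a lower almond level. Its size was not tested here. The study also mapped the reads to almond gene models and reported an almost perfect correlation with the peach-based levels over orthologous genes. That correlation was not examined for the members.

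CPM was the count divided by the sum of its column and multiplied by 1e6. The class was defined on CPM as given in the report. The members and lists were chosen with earlier results of these data known. Named genes were, in each direction, the 8 with the largest parental ratio, the 8 with the highest hybrid mean, and the 2 just inside and outside each limit. Lists fixed as patterns on product names, leaf markers among them, could not be applied because the gene models carry no product names in the sources used. Background calls came from edgeR 4.0.16 in R 4.3.3 (all 9 libraries in a single fit, low counts removed with filterByExpr, TMM factors between 0.943 and 1.05, quasi-likelihood test, Benjamini-Hochberg adjustment), with DESeq2 1.42.0 as an alternative. The scripts were tested on simulated data. Other calculations used Python 3.11.15. Intervals of a ratio of read pairs are exact (Clopper-Pearson) at a level of 95%. Alternatives were other scalings, windows, parental ratios and minimum levels, medians and geometric means, and leaving out each library. Replicate numbers 1 to 3 recur between genotypes, and same-numbered libraries deviated from their group means with correlations between -0.06 and 0.15, so the numbers were not taken to pair the libraries.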

Additional observations from a re-analysis of the deposited data

How the results depend on the processing

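With peach lower, the count of 48 became 74 with a window of 60% to 140%, 197 at a parental ratio of 2, 15 at a ratio of 5, 73 at a minimum of 0.1 CPM and 11 when each hybrid library had to be inside the window. With almond lower, the count of 43 became 27 with a window of 80% to 120%, 160 at a ratio of 2, 16 at a ratio of 5 and 9 with each hybrid library inside. Other limits moved the counts less, to 52 and 45 without the condition on overlap and 36 and 37 at a minimum of 1 CPM. Scaling gave 49 and 47 with TMM and 51 and 49 with DESeq2 size factors, and 40 members of each direction were chosen under TMM. With medians in place of means, 58 and 42 genes were chosen, of which only 22 and 26 were members. Leaving out 1 library gave 47 to 63 genes with peach lower and 40 to 59 with almond lower. The hybrid level of each of the 91 members, as a percentage of the lower parent, moved by less than the SD of its hybrid libraries under every scaling, in 86 with geometric means and 75 with medians, and in 769 of 819 cases with a library left out, and the same parent was lower in all of them. Most of the 819 cases could not have turned out otherwise. Leaving out a library of the higher parent cannot change this percentage, and leaving out a hybrid library always moves it by less than that SD. Because the parental libraries did not overlap, leaving out a library also could not change which parent was lower. Nothing is read from these counts.

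Over all features, calls numbered 1433 for hybrid against peach (1111 to 1457 without 1 library), 1453 for hybrid against almond (1142 to 1542) and 4105 for peach against almond (3824 to 4069). The last became 6233 without the minimum log2 ratio. With the replicate number as a block, which left peach library 4 alone in its block and without weight in the contrasts, the calls were 994, 1343 and 3534. Deviations of same-numbered libraries correlated between -0.06 and 0.15, and those of differently numbered libraries of different genotypes between -0.195 and 0.104. These ranges overlapped, and the highest value was that of hybrid library 3 with almond library 3. At the read numbers of these genes (a median of 118 read pairs in the hybrid), few ratios were precise. The exact interval around the ratio of summed read pairs lay wholly inside the window of 70% to 130% in 20 of the 91 members.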
